A study of Mus musculus with 6 samples.

Results

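The genes described here encode the subunits of the ligand-gated ion channels that carry fast synaptic transmission, namely the ionotropic glutamate receptors, the GABA-A receptors, the glycine receptors and the nicotinic acetylcholine receptors. Earlier results of these data were known when these families were chosen. Their genes were then taken by symbol, as every row of the count table that carries a subunit name of the families. This gave 51 of 19251 genes. A further 7 subunits of the same families (Gabrp, Gabrr3, Chrna9, Chrna10, Chrnd, Chrne and Chrng) were not analysed here.

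The libraries were made from polyadenylated RNA of the substantia nigra of C57BL/6 mice, in 6 libraries of which 3 belong to an ad libitum diet and 3 to intermittent fasting. Every mouse in both groups carried rAAV-A53T-aSynuclein, a recombinant adeno-associated virus for a mutant form of alpha-synuclein, the protein that accumulates in Parkinson's disease, and no group without the vector was analysed here. Diets began 2 weeks after surgery and ran for 10 weeks. The fasted mice went without food for 24 hours on 3 days of each week, and both groups were moved between cages at the same times. The vector's promoter, the injected side, the animals' ages and the interval between the last fast and tissue collection are not stated in the material used here, nor do the labels tie each library to its own animal. The p-values below therefore measure the spread between these libraries, part of which may be technical.

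Fast excitation in the brain runs mainly through AMPA receptors, whereas NMDA receptors open only when glutamate binds while the membrane is already depolarised, and kainate receptors act on both sides of the synapse. GABA-A receptors are pentamers, most often of alpha, beta and gamma subunits at the synapse, and receptors in which the delta subunit takes the place of gamma respond to GABA outside it. In the substantia nigra, the projection neurons of the pars reticulata are GABAergic and fire without pause, while the dopaminergic neurons of the pars compacta receive GABAergic and glutamatergic input and carry nicotinic receptors rich in alpha 6 and beta 3 subunits.

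Each library held between 42990234 and 48179706 estimated counts. All 10 markers of dopaminergic neurons and all 6 of GABAergic neurons that were looked for were above 0 in every library. Libraries of the same diet nevertheless differed in marker content. The summed level of the 10 dopaminergic markers, in CPM (counts relative to a common library total, after TMM scaling for composition), was 839, 805 and 1992 in ad libitum libraries 1 to 3, against 824, 1372 and 747 in fasting libraries 1 to 3. The 5 thalamic neuron markers summed to 1337, 86.5 and 418 CPM in the ad libitum libraries and to 1309, 760 and 943 CPM in the fasting ones. Of the 6 hypothalamic markers in the table, the sum was 526 CPM in ad libitum library 2, against 31.3 and 4.87 CPM in ad libitum libraries 1 and 3 and 116 to 148 CPM in the fasting libraries. The 3 ad libitum libraries thus stand apart from one another in the thalamic and hypothalamic sums. In the dopaminergic sum, ad libitum libraries 1 and 2 lay close together and library 3 stood apart. In bulk tissue, fewer cells of a type and less RNA per cell cannot be told apart.

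The diet left none of the subunit genes past the threshold. Of the 51 genes, 50 passed the filter on low counts and were tested with edgeR's quasi-likelihood test, and 0 had a Benjamini-Hochberg adjusted p under 0.05, where 0.497% of all 19109 genes tested did. At an unadjusted p under 0.05 there were 10 subunit genes, which is 20.0% of those tested against 20.4% of all genes. All 10 were higher under fasting, at 20.0% of the tested subunit genes against 8.74% of all genes in that direction, and 0 were lower, against 11.6% of all genes. This count rests on the libraries used. Without ad libitum library 1 it was 15 (14 higher and 1 lower), where 27.4% of all genes passed. Without ad libitum library 2 it was 16 (11 higher and 5 lower, among the lower Gria4, Gabrb2, Glra1 and Glrb), against 18.5% of all genes. Without fasting library 1 it was 5, against 12.8% of all genes, and without fasting library 3 it was 6, against 13.0%, all higher. DESeq2 called 5 of the 50 (Gabrq, Glra2, Gabrg3, Gabre and Gabrr2), each higher under fasting, where it called 7.40% of all genes and 2.90% in that direction. Without ad libitum library 1, edgeR called 3 (Grin1, Glra2 and Gria3), against 6.18% of all genes.

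Direction leaned towards fasting among the receptor genes as a group, with small differences. The log2 fold change, given throughout as fasting minus ad libitum, was above 0 in 31 of the 50 tested (62.0%, against 49.1% of all genes), and its median was 0.12 against -0.0050 for all genes. The 3 fasting libraries all lay above the 3 ad libitum libraries for 12 of the 50 (24.0%, against 12.5% of all genes in that direction and 27.5% in either). Among them were Chrnb2, Gabra3, Gabre, Gabrg3, Gabrq, Gabrr2, Glra2, Grid1, Grin1, Grin2d and Grin3a. For 0 genes did all fasting libraries lie below, against 15.0% of all genes. Several sums of other cell types were lower under fasting in the same libraries. The 8 oligodendrocyte markers summed to between 13790 and 18770 CPM in the ad libitum libraries and between 9730 and 12200 CPM under fasting. The 8 microglial markers summed to between 355 and 490 CPM under ad libitum feeding and between 280 and 287 CPM under fasting, with 1 marker called in each list (Ugt8a and C1qa, both lower). The oligodendrocyte precursor sum was 342 to 421 CPM and 265 to 291 CPM, and the endothelial and mural sum 267 to 321 CPM and 241 to 256 CPM, again without overlap. The astrocyte sum overlapped, at 2857 to 3906 CPM and 2585 to 2958 CPM. So did that of the 6 GABAergic markers, at 1802 to 2023 CPM and 1596 to 1926 CPM, although all 6 had a log2 fold change below 0 and Slc32a1 did not overlap. The 9 markers shared by all neurons summed to 6577, 4711 and 5397 CPM in the ad libitum libraries and to 6008, 6024 and 5655 CPM in the fasting ones, so these groups overlapped. Of these 9 markers, 6 had a log2 fold change above 0 and 3 below. Their median was 0.11, close to that of the subunit genes, so the lean is not particular to the receptors. The part of these differences in the subunit values was not tested.

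**Figure D1:**
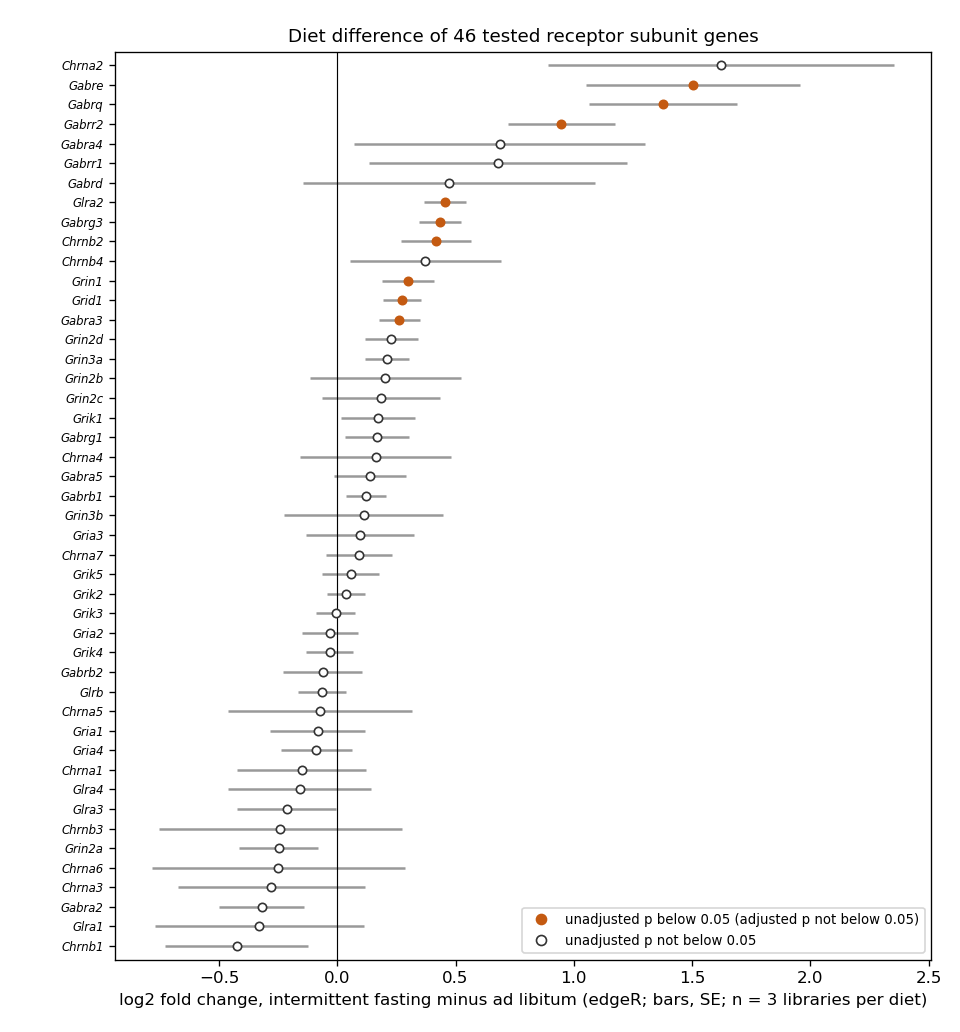
Log2 fold change (fasting minus ad libitum) of 46 tested subunit genes with its standard error, 3 libraries per diet, in order of size. The 9 filled points had an unadjusted p under 0.05 and all lie to the right of 0, and no gene passed the adjusted threshold.

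Ad libitum libraries were the more variable ones for these genes. The standard deviation of the log2 level was larger among the ad libitum libraries than among the fasting ones for 43 of the 50 tested (86.0%, against 67.4% of all genes). The lowest value was in ad libitum library 1 for 15 of the 50 genes, in library 2 for 16 and in library 3 for 10 (30%, 32% and 20%, against 19.5%, 22.6% and 14.9% of all genes). It was in fasting library 1 for 3, in library 2 for 4 and in library 3 for 2. The highest value was in ad libitum libraries 1 to 3 for 8, 8 and 11 genes and in fasting libraries 1 to 3 for 13, 4 and 6, and fasting library 1, at 26% against 17.2% of all genes, held the most.

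Levels between genes were compared per kilobase of the longest annotated coding transcript. Of the genes named here, the highest on that scale were Grin1, the subunit present in every NMDA receptor, at 82.1 CPM per kb under ad libitum feeding and 101 under fasting, and Glrb, the beta subunit that anchors glycine receptors to gephyrin, at 92.0 and 87.9 CPM per kb. In the diet means of Grin1 and Glrb the order turned between diets, so these neighbours are not ranked here. Gabrb2 followed at 56.1 and 53.8 CPM per kb, with Gria1 at 56.3 and 53.1, and these genes did not differ beyond the spread of their libraries. At the low end, Gabrr1 stood at 0.0894 and 0.144 CPM per kb.

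**Figure D2:**
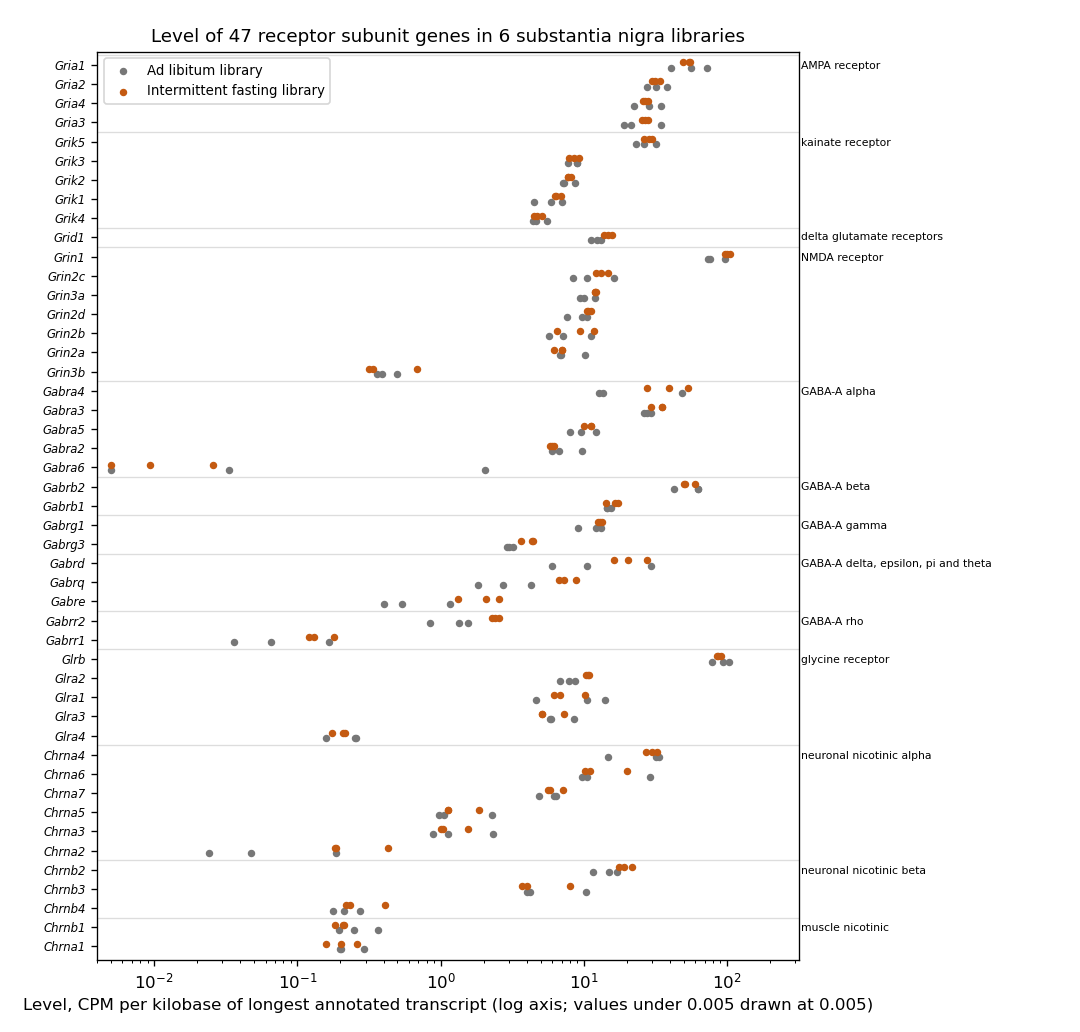
Level of 47 subunit genes in every library, in CPM per kilobase of transcript on a log axis, grouped by receptor class (grey, ad libitum; orange, fasting). Grin1 and Glrb lie to the right of the other genes drawn, and Gabra6 spans the widest range because 1 ad libitum library holds nearly all of its counts.

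The 6 subunit genes with the smallest p came from the GABA-A and glycine receptor families, apart from the delta receptor gene Grid1. Glra2 (ENSMUSG00000018589, X chromosome) encodes the alpha 2 glycine receptor subunit, the main alpha subunit of the immature brain. Its level was 21.7, 24.7 and 27.2 CPM in ad libitum libraries 1 to 3 and 34.3, 34.0 and 32.6 CPM in fasting libraries 1 to 3. All fasting libraries lay above all ad libitum ones, with means of 24.5 ± 2.79 CPM (SD, n = 3) and 33.7 ± 0.893 CPM (SD, n = 3), a ratio of 1.37. The log2 fold change was 0.46 (SE 0.09), with an adjusted p of 0.0685 by edgeR and 0.00156 by DESeq2.

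Gabrg3 (ENSMUSG00000055026, chromosome 7), 1 of the 3 gamma subunit genes, stood at 29.6, 31.3 and 28.7 CPM under ad libitum feeding and at 43.1, 35.3 and 42.5 CPM under fasting. The groups did not overlap, and the log2 fold change was 0.43 (SE 0.09), with an adjusted p of 0.0712 by edgeR and 0.00242 by DESeq2. Gabrg1 stood at 43.4, 58.2 and 63.3 CPM and at 63.7, 59.8 and 61.6 CPM, with overlapping groups and a log2 fold change of 0.17 (SE 0.13).

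Gabrq and Gabre, which encode the theta and epsilon subunits and lie close together on the X chromosome beside Gabra3, had large fold changes from low levels. Gabrq (ENSMUSG00000031344) stood at 9.10, 21.1 and 13.5 CPM in the ad libitum libraries and at 36.2, 33.4 and 44.0 CPM in the fasting ones. That is a ratio of 2.60 between means, with a log2 fold change of 1.38 (SE 0.31), an edgeR adjusted p of 0.101 and a DESeq2 adjusted p of 3.12e-05. Gabre (ENSMUSG00000031340) stood at 2.33, 5.0 and 1.73 CPM and at 8.91, 5.71 and 11.1 CPM, a ratio of 2.84. Its log2 fold change was 1.5 (SE 0.45), with an adjusted p of 0.151 by edgeR and 0.00427 by DESeq2. Neither gene's groups overlapped, and within the ad libitum diet library 2 was the highest for both. Gabra3, the alpha subunit of their gene cluster, was at 96.5, 101 and 107 CPM and at 129, 108 and 129 CPM. Its groups did not overlap either, with a log2 fold change of 0.26 (SE 0.09) and an edgeR adjusted p of 0.161. Calcr, the calcitonin receptor, ordered the 6 libraries exactly as Gabre did, at 1.35, 3.43 and 1.28 CPM under ad libitum feeding and 6.44, 5.25 and 9.23 CPM under fasting. It was among the 6 markers of medial habenula and interpeduncular neurons, whose sum ran from 27.4 to 48.5 CPM under ad libitum feeding and from 32.5 to 49.9 CPM under fasting. The other markers of that list had other orders. Of the 6, 4 had a log2 fold change above 0 and 2 below, Nwd2 at -0.27 and Wif1 at -0.78. Ccdc153 and Tmem212, from the 5 markers of ependymal and choroid plexus cells, also ordered the libraries as Gabre did. Their log2 fold changes were 4.28 and 4.75, and Foxj1, Ttr and Folr1 had other orders. The part of any of these cells in the value of Gabre was not tested.

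Gabrr2 (ENSMUSG00000023267, chromosome 4), a rho subunit best known from the retina, stood at 2.58, 3.01 and 1.62 CPM in the ad libitum libraries and at 4.39, 4.62 and 4.93 CPM in the fasting ones. The groups did not overlap, and the log2 fold change was 0.95 (SE 0.23), with an adjusted p of 0.0937 by edgeR and 0.00534 by DESeq2. Its neighbour Gabrr1 was close to the detection limit, at 0.381, 0.0826 and 0.150 CPM and at 0.409, 0.301 and 0.277 CPM, and these groups overlapped. The annotated transcripts of Gabrr2 and Gabrr1, pooled for each gene, share 5.50% and 5.05% of their 31-base words with other genes. Reads could be split between genes to that extent.

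**Figure D3:**
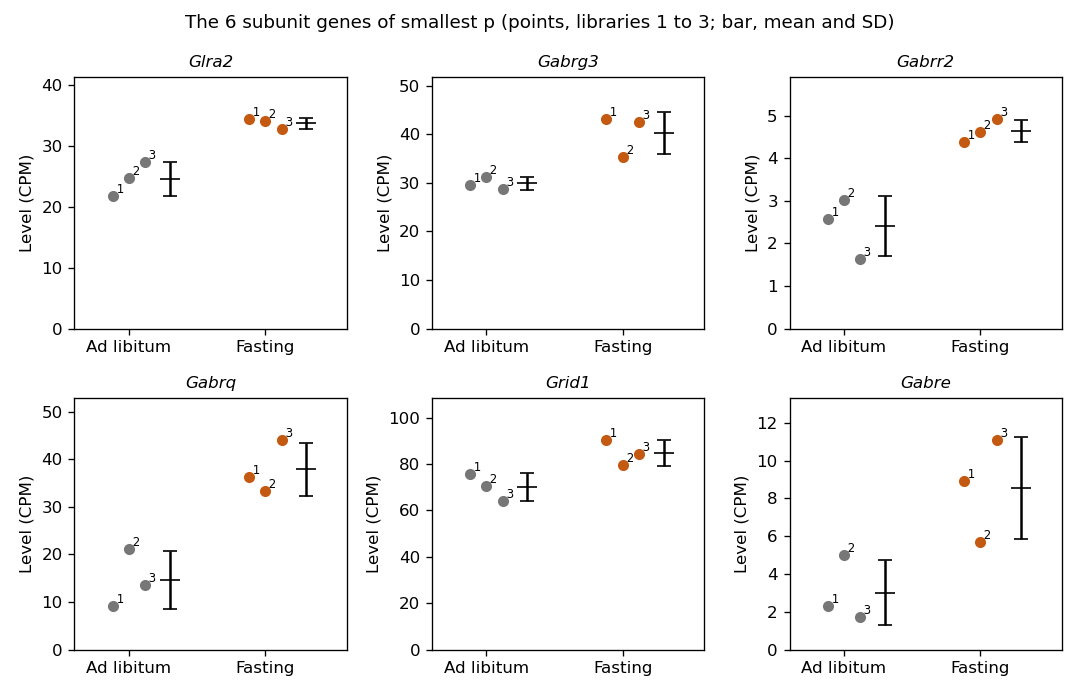
CPM of the 6 subunit genes with the smallest p in each library (numbered points), with the mean and SD of 3 libraries per diet. In all 6 panels the fasting libraries lie above the ad libitum libraries, by a ratio of means from 1.21 (Grid1) to 2.84 (Gabre).

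The start regions of the 5 genes that DESeq2 called are shown because these were the subunit genes that passed the threshold of either tool on the full set of libraries. Each is the 250 bases before the annotated start on the gene's own strand, taken from RefSeq's promoter table for GRCm38.p6, which is not the build of the counts. Capitals mark matches to a GC box (GGGCGG on either strand), a binding site of the Sp family, or to a TATA box (TATAAA on either strand).
Gabrq, chrX:72824928-72825177, plus strand: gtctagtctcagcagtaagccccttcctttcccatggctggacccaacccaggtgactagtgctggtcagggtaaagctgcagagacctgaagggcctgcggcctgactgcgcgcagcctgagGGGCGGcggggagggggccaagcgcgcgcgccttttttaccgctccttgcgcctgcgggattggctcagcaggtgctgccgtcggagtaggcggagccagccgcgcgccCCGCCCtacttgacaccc
Gabre, chrX:72274722-72274971, minus strand: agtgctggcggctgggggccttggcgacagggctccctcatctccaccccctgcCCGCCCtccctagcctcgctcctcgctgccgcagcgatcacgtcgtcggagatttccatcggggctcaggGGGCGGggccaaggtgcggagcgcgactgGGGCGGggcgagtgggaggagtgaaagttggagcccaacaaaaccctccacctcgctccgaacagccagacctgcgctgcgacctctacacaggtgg
Gabrg3, chr7:57387216-57387465, minus strand: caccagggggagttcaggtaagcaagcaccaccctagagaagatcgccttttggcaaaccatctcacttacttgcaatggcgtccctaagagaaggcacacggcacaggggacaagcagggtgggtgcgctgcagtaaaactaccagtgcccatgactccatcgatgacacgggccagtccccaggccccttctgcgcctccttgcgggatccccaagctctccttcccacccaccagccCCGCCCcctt
Glra2, chrX:165327394-165327643, minus strand: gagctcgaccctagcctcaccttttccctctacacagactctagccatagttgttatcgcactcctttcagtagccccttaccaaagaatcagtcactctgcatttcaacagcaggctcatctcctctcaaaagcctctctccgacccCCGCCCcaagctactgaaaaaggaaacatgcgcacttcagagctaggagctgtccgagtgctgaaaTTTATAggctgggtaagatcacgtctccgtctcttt
Gabrr2, chr4:33062862-33063111, plus strand: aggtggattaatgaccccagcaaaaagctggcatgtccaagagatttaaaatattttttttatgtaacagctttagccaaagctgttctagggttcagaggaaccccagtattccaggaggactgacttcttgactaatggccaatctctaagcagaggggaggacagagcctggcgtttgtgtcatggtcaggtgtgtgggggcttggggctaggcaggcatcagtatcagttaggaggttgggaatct

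Gabrq and Gabre have CpG-rich starts, with 19 and 21 CpG dinucleotides and a G+C content of 67.2% and 68.8%. The window of Gabrq holds 2 GC boxes and that of Gabre holds 3. Gabrg3 has 9 CpG dinucleotides and 1 GC box, while Glra2 has 8, with 1 GC box and 1 TATA box. Gabrr2 is the exception, with 1 CpG, a G+C content of 47.6% and no match to either motif. The table held 40 windows for 35 of the 51 subunit genes. Their median was 9 CpG dinucleotides and 59.2% G+C, against 6 and 52.4% over all 32851 windows. A GC box occurred in 19 of the 40 windows (47.5%), against 32.7% of all windows, and a TATA box in 15.0% against 12.4%. None of the motifs searched is contained in another. Of 4 others, also read on both strands, an E-box (CACGTG) occurred in 5.0% of the subunit windows against 6.02% of all, and a homeodomain core (TAATTA) in 5.0% against 4.84%. The cAMP response element (TGACGTCA) and the NR4A element (AAAGGTCA) were in 0 of the 40 windows, against 1.55% and 1.34% of all windows. A match is a description of these letters and not a bound site.

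Among the glutamate receptors, AMPA and kainate subunits showed no difference between diets larger than the spread of their libraries. Gria2, whose edited subunit blocks calcium entry through AMPA receptors, stood at 288, 395 and 333 CPM under ad libitum feeding and at 329, 313 and 353 CPM under fasting. Gria1 stood at 225, 400.5 and 311 CPM and at 301, 274 and 308 CPM, so the ad libitum libraries spanned the whole fasting range. Gria4, linked with fast-firing neurons, was at 189.9, 123 and 156 CPM and at 146, 153 and 142 CPM. Gria3 was at 179.7, 112 and 98.6 CPM and at 146, 133 and 138 CPM, a log2 fold change of 0.10 (SE 0.23). Its value rests on 1 library. Without ad libitum library 1 the log2 fold change of Gria3 was 0.40, with an edgeR adjusted p of 0.0375.

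The transcript ratio of Gria1 to Gria2 was 0.782, 1.01 and 0.933 under ad libitum feeding and 0.917, 0.876 and 0.873 under fasting, so the ratio overlapped as well. The kainate subunits Grik1 to Grik5 had log2 fold changes between -0.03 and 0.17, with a median of 0.04. Grik5, a high-affinity subunit that needs Grik1, Grik2 or Grik3 to form channels, was the highest of them per length, at 87.9, 121 and 98.8 CPM and at 107, 98.9 and 113 CPM. Grik1 had the smallest p of the class, at 25.8, 16.4 and 21.6 CPM and at 25.4, 23.4 and 23.0 CPM. The groups of each overlapped, and the edgeR adjusted p of Grik1 was 0.587. The other 3, Grik2, Grik3 and Grik4, ranged from 25.9 to 82.8 CPM over all libraries.

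Grid1 encodes a delta receptor and was higher under fasting at an unadjusted p under 0.05. Delta receptors sit among the ionotropic glutamate receptors by sequence but act chiefly as postsynaptic partners of secreted cerebellins. The level of Grid1 was 75.7, 70.4 and 64.0 CPM under ad libitum feeding and 90.3, 79.4 and 84.4 CPM under fasting. Its log2 fold change was 0.27 (SE 0.08), with an edgeR adjusted p of 0.128. The groups did not overlap, and the difference was 1.21-fold.

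Of the 7 NMDA receptor genes, 6 had a log2 fold change above 0, with a median of 0.20. Grin1 stood at 414, 324 and 315 CPM in the ad libitum libraries and at 451, 415 and 429.9 CPM in the fasting ones. Ad libitum library 1, at 414 CPM, nearly touched the lowest fasting library. The log2 fold change was 0.30 (SE 0.11), with an edgeR adjusted p of 0.197, and without ad libitum library 1 it was 0.44 with an edgeR adjusted p of 0.0217. Of the exon bases of Grin1, 13.5% lie opposite exons of Grin1os, which averaged 0.325 CPM. Grin3a, which lowers calcium flow through the receptor, stood at 74.8, 70.3 and 89.9 CPM and at 91.5, 90.0 and 90.2 CPM. Grin2d, the slow-closing subunit found in brainstem and midbrain neurons, was at 52.5, 41.4 and 56.8 CPM and at 60.9, 58.3 and 57.5 CPM. The groups of both were separated by a narrow margin, and their edgeR adjusted p values were 0.262 and 0.314. Grin3b was low, at 1.05 to 2.27 CPM over the 6 libraries, and 32.1% of its exon bases lie opposite exons of Tmem259. The counting's use of strand is not stated in the material used here, so reads of the pair may have been mixed.

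Grin2a was the NMDA subunit with a negative log2 fold change. It stood at 149.7, 100.3 and 102 CPM under ad libitum feeding and at 103, 90.6 and 103 CPM under fasting, a log2 fold change of -0.25 (SE 0.17) with an edgeR adjusted p of 0.452. Without ad libitum library 1 the log2 fold change was -0.036. As a share of the summed per-length level of the 7 NMDA genes, however, Grin2a stood at 6.61%, 5.93% and 5.84% in the ad libitum libraries and at 4.32%, 4.26% and 4.60% in the fasting ones. These shares did not overlap between diets, with means of 6.13% ± 0.419 (SD, n = 3) and 4.39% ± 0.180 (SD, n = 3). A share also depends on the rest of the sum. Grin1, whose level was higher in all fasting libraries, made up 61.5% to 66.7% of it. A lower share is therefore not by itself a lower level of Grin2a. Such a share was computed for each of the 51 genes within its class. It failed to overlap between diets for 2 of them, Grin2a and Glra2, and overlapped for 49. No such share was computed for genes outside these classes. In level, a different measure, the groups did not overlap for 27.5% of all genes, so 2 of 51 is not many. Shares were a description added after the values were seen and have no test. The ratio of Grin2a to Grin2b, a pair whose balance sets how fast NMDA currents close, was 0.556, 0.581 and 0.738 under ad libitum feeding and 0.363, 0.577 and 0.453 under fasting. These ratios overlapped, with a mean of 0.625 ± 0.0986 (SD, n = 3) against 0.464 ± 0.107 (SD, n = 3). Grin2a shares 12.1% of its 31-base words with another annotated gene, mainly Gm7328, and is uncertain to that extent.

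The alpha subunits of the GABA-A receptor differed in how steady they were across libraries. Gabra2, the alpha subunit of many forebrain synapses, stood at 34.9, 56.9 and 39.3 CPM under ad libitum feeding and at 33.8, 36.1 and 35.2 CPM under fasting, a log2 fold change of -0.32 (SE 0.18) with an edgeR adjusted p of 0.378. Gabra5, known from extrasynaptic receptors of the hippocampus, ranged from 21.3 to 32.3 CPM and from 26.8 to 30.2 CPM.

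Gabra4 and Gabrd varied several-fold between libraries of the same diet, and in step. Together the alpha 4 and delta subunits form extrasynaptic receptors that are abundant in the thalamus. Gabra4 stood at 199.9, 52.7 and 56.3 CPM in ad libitum libraries 1 to 3 and at 220.1, 114 and 163 CPM in fasting libraries 1 to 3. Gabrd stood at 56.9, 20.2 and 11.6 CPM and at 53.2, 31.2 and 38.9 CPM. In both genes ad libitum library 1 and fasting library 1 were the highest, and ad libitum libraries 2 and 3 the lowest. The log2 fold changes were 0.69 (SE 0.62) for Gabra4 and 0.47 (SE 0.62) for Gabrd, each close to its standard error. Leaving out 1 library at a time moved Gabra4 between 0.36 and 1.6 and Gabrd between 0.090 and 1.37, the upper values being those without ad libitum library 1. Among the 5 thalamic markers, all of which were above 0 in every library, Prkcd stood at 714, 15.2 and 92.2 CPM and at 702, 405 and 527 CPM. Plekhg1 ordered the 6 libraries exactly as Gabra4 did, and Rgs16 and Prkcd ordered them as Grin2c did. Tcf7l2 and Cplx3 had other orders. Tcf7l2 was at 216, 14.2 and 202 CPM and at 198, 129 and 127 CPM, with ad libitum library 3 above fasting library 1. Cplx3 was highest in fasting library 3, at 6.42 CPM. Grin2c itself was at 79.9, 41.0 and 51.4 CPM and at 71.9, 59.9 and 64.2 CPM, and Grin2b at 269, 173 and 139 CPM and at 284, 157 and 227 CPM. Both NMDA subunits were thus highest in the same 2 libraries as Gabra4. These were also the top 2 libraries of the subunit genes Gria3, Grik1 and Gabrr1. Among the markers of all neurons they were the top 2 of Snap25 and Syt1, while the rest of that list had other top libraries. The part of thalamic tissue in Gabra4, Gabrd, Grin2b and Grin2c was not tested.

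**Figure D4:**
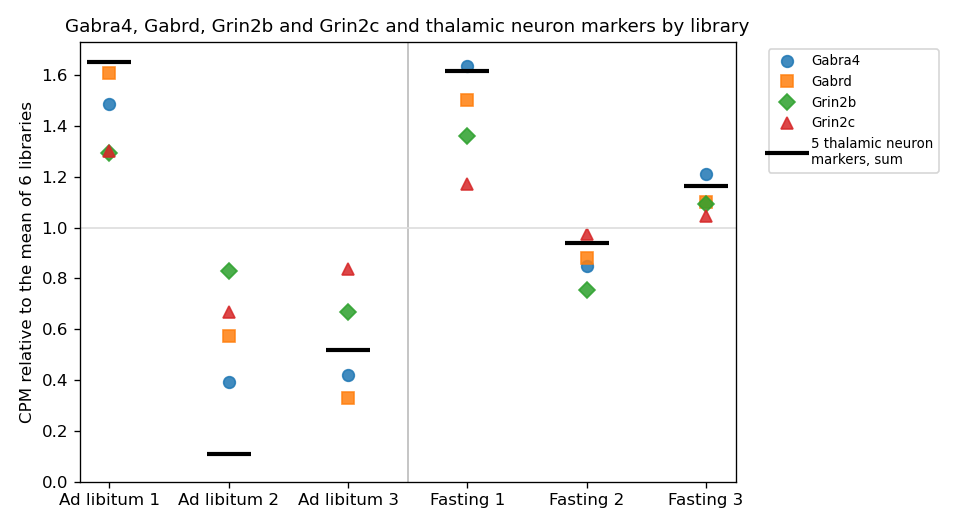
CPM of Gabra4, Gabrd, Grin2b and Grin2c in each library, relative to the mean of the 6 libraries, with the summed CPM of 5 thalamic neuron markers drawn as black bars. The marker sum runs from 86.5 to 1337 CPM, and ad libitum library 1 and fasting library 1 are the highest for the sum and for all 4 genes.

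Gabra6, whose subunit is typical of cerebellar granule cells, was the gene that the low-count filter removed. It had 0, 4 and 237 counts in ad libitum libraries 1 to 3 and 0, 1 and 3 counts in fasting libraries 1 to 3. A count of 0 allows up to 0.0635 CPM in ad libitum library 1 and 0.0682 CPM in fasting library 1 when counting error alone is considered, and ad libitum library 3 stood at 5.07 CPM. Fat2 and Cbln3, both granule cell genes, were also highest in ad libitum library 3. Fat2 stood at 8.76 CPM there and at 0.36 CPM or less in the other libraries, and Cbln3 at 13.8 CPM there and between 1.88 and 2.37 CPM elsewhere. Pcp2, another cerebellar marker, was also highest in ad libitum library 3, at 3.10 CPM. The rest of that list was not, since Zic1 and Pcp4 were highest in ad libitum library 1, Barhl1 in ad libitum library 2 and Calb1 in fasting library 1. The 7 cerebellar markers as a whole summed to 713, 244 and 334 CPM and to 712, 474 and 575 CPM, with Fat2 at 0 in fasting library 1. Gabra6 was not tested for diet, and the part of cerebellar cells in its value was not tested either.

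The beta subunits complete the GABA binding site with the alpha subunits. Gabrb2 stood at 252, 169 and 251 CPM under ad libitum feeding and at 239.5, 200.0 and 204 CPM under fasting. Gabrb1 was at 199, 201 and 212 CPM and at 240.2, 196 and 228 CPM. The groups overlapped for both genes, whose log2 fold changes were -0.06 and 0.12.

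Many GABA-A genes sit in clusters, and differences between cluster mates were not tested. On chromosome 7, the neighbours Gabrg3 and Gabra5 had log2 fold changes of 0.43 (SE 0.09) and 0.14 (SE 0.15). The X-linked Gabra3, Gabrq and Gabre had 0.26 (SE 0.09), 1.38 (SE 0.31) and 1.5 (SE 0.45). The chromosome 4 pair Gabrr2 and Gabrr1 had 0.95 (SE 0.23) and 0.68 (SE 0.54). Gene order is from GENCODE M21 on GRCm38, where 1 other coding gene lies between Gabre and Gabra3.

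The groups overlapped for every glycine receptor gene other than Glra2, and none of them, Glra2 included, passed the edgeR threshold on all libraries. Glrb stood at 313, 238 and 284 CPM under ad libitum feeding and at 264, 277 and 257 CPM under fasting. Glra1, the alpha subunit of adult brainstem and spinal cord, was at 25.2, 11.1 and 33.7 CPM and at 14.8, 24.5 and 16.4 CPM. Glra3 was at 37.6, 38.5 and 55.3 CPM and at 33.1, 47.1 and 33.1 CPM, and its log2 fold change was -0.21 (SE 0.21) at an edgeR adjusted p of 0.612. Glra4 was at or below 0.470 CPM in every library. Of these 5 genes Glra2 alone had a log2 fold change above 0, and the class median was -0.16. Glra2 made up 5.42%, 8.07% and 6.90% of the per-length glycine receptor level in the ad libitum libraries and 9.95%, 8.99% and 9.64% in the fasting ones. The groups of this share did not overlap. The ratio of Glra1 to Glra2 was 1.17, 0.448 and 1.24 against 0.431, 0.722 and 0.502, with overlap at ad libitum library 2.

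Nicotinic subunits of dopaminergic neurons were highest in the same 2 libraries, 1 of each diet. Chrna6, the alpha 6 subunit found on dopaminergic neurons and their terminals, stood at 28.1, 30.8 and 84.1 CPM in ad libitum libraries 1 to 3 and at 32.3, 58.3 and 29.7 CPM in fasting libraries 1 to 3. Its neighbour on chromosome 8, Chrnb3, whose beta 3 subunit joins alpha 6 in the same receptors, stood at 18.5, 19.3 and 47.9 CPM and at 18.4, 37.0 and 17.1 CPM. Chrna3 stood at 4.91, 3.86 and 10.2 CPM and at 4.39, 6.73 and 4.54 CPM, and Chrna5, a modulatory subunit of the chromosome 9 cluster, at 2.58, 2.40 and 5.60 CPM and at 2.75, 4.53 and 2.77 CPM. All 4 were highest in ad libitum library 3 and next in fasting library 2. So was the dopamine marker Th, at 86.3, 92.6 and 236 CPM and at 105, 189 and 93.7 CPM. The dopamine transporter gene Slc6a3 had the same top 2 libraries, at 247, 239.7 and 653 CPM and at 222, 403 and 180.5 CPM. So did Slc18a2, Ddc, Aldh1a1, Pitx3 and En1. Nr4a2 and Foxa1 were instead highest in fasting library 2 and next in ad libitum library 3. Sox6 had another order, at 24.0, 38.4 and 33.7 CPM and at 22.9, 22.9 and 21.9 CPM, with all fasting libraries below. The log2 fold changes of the nicotinic genes ran from -0.28 (SE 0.40) for Chrna3 to -0.07 (SE 0.39) for Chrna5. They were -0.25 (SE 0.53) for Chrna6 and -0.24 (SE 0.51) for Chrnb3. Without ad libitum library 3, the values were 0.45 for Chrna6, 0.35 for Chrnb3, 0.25 for Chrna3 and 0.43 for Chrna5. The part of dopaminergic cell content in these values was not tested.

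**Figure D5:**
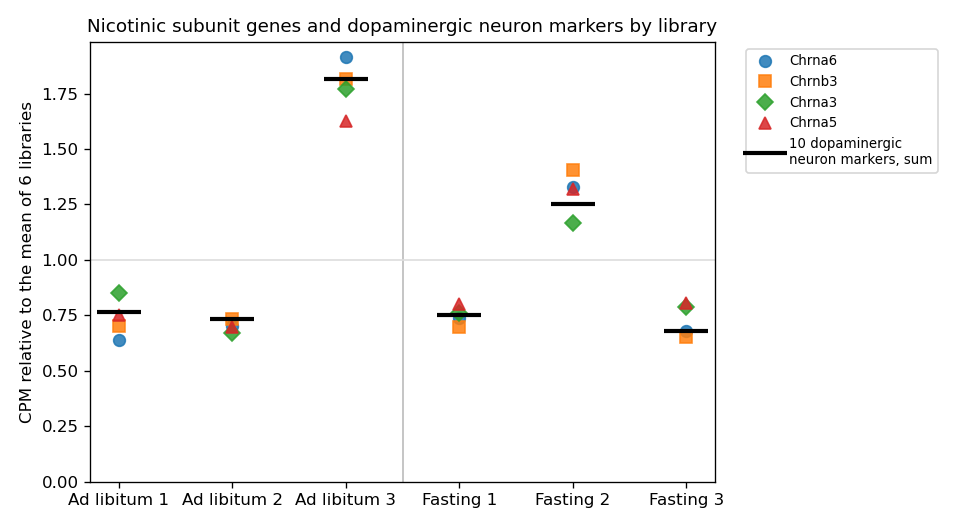
CPM of Chrna6, Chrnb3, Chrna3 and Chrna5 in each library, relative to the mean of the 6 libraries, with the summed CPM of 10 dopaminergic neuron markers drawn as black bars. The marker sum was 1992 CPM in ad libitum library 3 and 1372 CPM in fasting library 2, and all 4 genes were highest in these libraries.

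Chrna4 and Chrnb2 encode the alpha 4 beta 2 receptor, the most widespread nicotinic receptor of the brain. Chrna4, the highest nicotinic gene per length at 26.8 CPM per kb under ad libitum feeding and 30.0 under fasting, stood at 146, 67.0 and 154 CPM under ad libitum feeding and at 149, 138 and 124 CPM under fasting, with ad libitum library 2 far below the other 5. Its log2 fold change was 0.16 (SE 0.32). Chrnb2 stood at 109, 74.7 and 96.0 CPM and at 139, 112 and 122 CPM. The groups of Chrnb2 did not overlap, and its log2 fold change was 0.42 (SE 0.15), with an edgeR adjusted p of 0.194. Of its exon bases 16.3% lie opposite exons of Adar, which averaged 264 CPM, so the counts of Chrnb2 are uncertain if strand was not used. Chrna7, the subunit of homomeric alpha 7 receptors, ranged from 10.1 to 13.4 CPM under ad libitum feeding and from 11.7 to 14.8 CPM under fasting.

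The remaining nicotinic genes were near the detection limit. Chrna2 stood at 0.169, 0.661 and 0.0855 CPM under ad libitum feeding and at 0.659, 0.647 and 1.54 CPM under fasting, so the groups overlapped at ad libitum library 2. Its log2 fold change of 1.62 (SE 0.73) was the largest of the 50, with an edgeR adjusted p of 0.279. Chrnb4 was at 0.656, 0.785 and 1.03 CPM and at 0.864, 1.53 and 0.810 CPM. The muscle subunits were at 0.889, 0.867 and 1.28 CPM and 0.887, 0.694 and 1.15 CPM for Chrna1. Chrnb1 was at 0.423, 0.785 and 0.534 CPM and at 0.455, 0.393 and 0.448 CPM.

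Genes that assemble, anchor or bind these receptors were also looked at, and 0 of 73 in 5 lists were called by edgeR, against 0.497% of all genes. Of 15 AMPA and kainate auxiliary subunits, 0 had an unadjusted p under 0.05, against 20.4% of all genes, and the median log2 fold change was 0.07. The smallest p was that of Cnih3, a cornichon that slows AMPA receptor closing, with a log2 fold change of 0.92 and an edgeR adjusted p of 0.365. The next was Neto2, a kainate receptor partner, with a log2 fold change of -0.24 and an edgeR adjusted p of 0.412. Of 22 excitatory scaffold genes, 17 had a log2 fold change above 0, and the median was 0.13. The 2 with an unadjusted p under 0.05 were both lower under fasting, a direction that 11.6% of all genes had at that p. They were Homer3 (log2 fold change -0.33, edgeR adjusted p 0.218) and Dlg1, which encodes SAP97 (log2 fold change -0.36, edgeR adjusted p 0.219).

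Of 15 inhibitory scaffold and GABA-A accessory genes, Hap1 was the 1 with an unadjusted p under 0.05, against 20.4% of all genes. Hap1, a partner of huntingtin that aids the return of GABA-A receptors to the membrane, stood at 209.8, 295 and 260 CPM under ad libitum feeding and at 347, 385 and 396 CPM under fasting. The groups did not overlap, with a log2 fold change of 0.56 and an edgeR adjusted p of 0.0856. Lhfpl4, which holds GABA-A receptors to neuroligin 2, had a log2 fold change of 0.12 and an edgeR adjusted p of 0.265. The list's median was 0.03. Of 11 nicotinic chaperones and modulators, 3 were higher and 1 lower at an unadjusted p under 0.05, against 8.74% and 11.6% of all genes, and the median was 0.08. The lower one was Rapsn, which encodes the anchor of muscle receptors, at 0.423, 0.785 and 0.598 CPM under ad libitum feeding and 0.387, 0.208 and 0.171 CPM under fasting. Its log2 fold change was -1.24, the largest of the list in size, with an edgeR adjusted p of 0.159. Rapsn and Ly6h, a higher one with a log2 fold change of 0.46, were named after their values were seen. Agrn, which encodes the organiser of the nerve-muscle synapse, had a log2 fold change of 0.27 and an edgeR adjusted p of 0.0798. Ric3, a chaperone of alpha 7 receptors, had a log2 fold change of 0.22 and an edgeR adjusted p of 0.109.

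The partners of delta and kainate receptors looked at were 10 cerebellins, C1q-like proteins and neurexins. At an unadjusted p under 0.05, 2 were higher and 0 lower, against 8.74% and 11.6% of all genes. Cbln4 stood at 18.9, 18.5 and 27.7 CPM under ad libitum feeding and at 36.3, 36.9 and 33.4 CPM under fasting. Its groups did not overlap, with a log2 fold change of 0.71 and an edgeR adjusted p of 0.0916. Nrxn2 had a log2 fold change of 0.18 and an edgeR adjusted p of 0.161. The list's median was 0.10.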

How the data were processed

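Values are estimated counts per gene, which the authors deposited unscaled as whole numbers in a single table of 6 library columns. The submitters' processing notes name Salmon, DESeq2 1.40.2 and GRCm39 (mm39). What each tool did, the Salmon version, the annotation and the use of strand were not given in the sources used here.

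Counts were fitted with edgeR 4.0.16 under R 4.3.3 (filterByExpr, TMM scaling, robust quasi-likelihood test, 4 residual degrees of freedom), testing 19109 of 19251 genes two-sided with Benjamini-Hochberg adjustment over all of them at 0.05. DESeq2 1.42.0 and limma 3.58.1 (voom) were alternatives. CPM used TMM-scaled totals. Each SE was derived from the log2 fold change and the F statistic. Transcript lengths and gene order came from GENCODE M21 (GRCm38), promoters from RefSeq.

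The subunit genes and gene lists were chosen with earlier results of these data known. Values in every library were given for the highest gene per length and the 2 of smallest p in each class, the 6 of smallest p overall and the 6 with the largest single-library excess. Gria2, Grin2a, Grin2b, Grin2c, Grin2d, Gabra2, Gabra4, Glra1 and Chrna5 were added after their values were seen, as were class shares. Some subunit genes enter the counts but are not reported here by name.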

Additional observations from a re-analysis of the deposited data

How the results depend on the processing

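No subunit gene passed the edgeR threshold with RLE or upper-quartile scaling, without the filter on low counts, with a mean count of at least 50, without robust shrinkage or with limma-voom, and 10 or 11 had an unadjusted p under 0.05 in those fits. DESeq2 called 5, with 12 at an unadjusted p under 0.05, and leaving out 1 library at a time gave 0 to 3. Over all genes the main count of 95 became 9 without robust shrinkage, 32 with limma-voom and 1395 with DESeq2, and ranged from 0 to 1187 when 1 library was left out. The labels of both diets share replicate numbers. Same-numbered libraries correlated at 0.206, -0.0386 and -0.106 in their deviations from the diet means, and differently numbered ones at -0.136 to 0.194. With so few libraries these values cannot settle whether the numbers pair the libraries. With the replicate number as a block, 0 subunit genes and 285 genes in all were called.

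The median log2 fold change of the subunit genes stayed between 0.073 and 0.140 in all these fits. Of the 46 tested genes reported by name, 21 turned sign when 1 library was left out, in 32 of 276 such values. Their ranges were Chrna1 -0.36 to 0.054, Chrna3 -0.54 to 0.25, Chrna4 -0.14 to 0.36, Chrna5 -0.35 to 0.43, Chrna6 -0.62 to 0.45, Chrna7 -0.026 to 0.16, Chrnb3 -0.69 to 0.35, Gabrb2 -0.23 to 0.030, Glra1 -0.67 to 0.033, Glrb -0.17 to 0.028, Gria1 -0.27 to 0.13, Gria2 -0.14 to 0.090, Gria3 -0.069 to 0.40, Gria4 -0.24 to 0.075, Grik2 -0.016 to 0.12, Grik3 -0.071 to 0.045, Grik4 -0.10 to 0.064, Grik5 -0.044 to 0.19, Grin2b -0.017 to 0.52, Grin2c -0.014 to 0.50 and Grin3b -0.34 to 0.30. The cause was not tested. The sign of Glra2, Gabrg3, Gabrr2, Gabrq, Gabre, Grid1, Grin1, Gabra3 and Chrnb2 did not turn in any of these fits. Depth limits the lowest genes, such as Gabrr1, which had 4 to 18 counts per library, and Chrna2, which had 4 to 72.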
